A study of Mus musculus with 2 samples.

Results

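Glycolysis, the breakdown of glucose to pyruvate and lactate, was described in GD2TIF cells through 10 genes that cover its path from the plasma membrane to lactate: the glucose transporters Slc2a1 and Slc2a3, the hexokinases Hk1 and Hk2, and the enzymes Aldoa, Gapdh, Pgk1, Eno1, Pkm and Ldha. The genes were taken by name, and all 10 were among the 20794 genes of the RNA matrix. GD2TIF cells here are T cells of Cas9-transgenic mice, transduced with a retrovirus that targets Bcor, a corepressor of transcription, and Zc3h12a, the gene of the RNA-degrading protein Regnase-1, and that also carries the GD2 chimeric antigen receptor 14g2a. Each C57BL/6 recipient, with its own immune system intact, was given 1000000 cells, and CD8+Thy1.1+ cells were taken from the spleen 2 months after transfer. From these cells 1 RNA library was made, and 1 library of their T cell receptors (TCR). There was no untreated, unedited or earlier group, so all cells share this treatment, and no label says how many mice they came from. Which edits of Bcor and Zc3h12a single cells or families carry was not measured here.

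A glucose molecule enters a T cell through facilitative transporters, of which GLUT1 (Slc2a1) and GLUT3 (Slc2a3) are the best known in lymphocytes, and is trapped inside by hexokinase. Aldolase splits the phosphorylated sugar, GAPDH, phosphoglycerate kinase, enolase and pyruvate kinase turn the pieces into pyruvate, and lactate dehydrogenase reduces pyruvate to lactate. Activated T cells are known for raising this pathway under the control of mTOR, Myc and HIF-1, whereas resting memory cells are known for relying more on respiration. In RefSeq's annotation of GRCm38.p6 the transporter genes lie at chr4:119108745-119137330 (Slc2a1) and chr6:122727809-122802363 (Slc2a3), and the hexokinase genes at chr10:62268855-62379920 (Hk1) and chr6:82725025-82774454 (Hk2). Aldoa spans chr7:126795234-126800994, Gapdh chr6:125161852-125166467, Pgk1 chrX:106187100-106203699, Eno1 chr4:150236708-150248879, Pkm chr9:59656576-59679372 and Ldha chr7:46842274-46855627. Slc2a3, Hk2 and Gapdh thus share chromosome 6, Slc2a1 and Eno1 chromosome 4, and Aldoa and Ldha chromosome 7.

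Of 10387 barcodes, 10338 were kept as cells, with a median of 1922 unique molecular identifiers (UMIs, each marking 1 captured mRNA molecule; range 500 to 17222) and 22280465 UMIs in all. The labelled cell type was borne out by its markers: the 8 T cell genes summed to 12103 UMIs per 1000000 UMIs (CPM) and Cd8a with Cd8b1 to 615, whereas Cd4 stood at 0.628. The list of 3 CD4 genes summed to 9.74 CPM, of which Cd40lg gave 8.93. Markers of other cells were low but not 0: 49.3 CPM for the B cell list, 133 for the myeloid list, of which Cst3 gave 126 and Lyz2 0.180, 1.57 for the NK list, 0.404 for the 1 platelet gene in the matrix and 155 for the erythroid list. A single cell carried 3153 erythroid UMIs, and it belonged to the family TRBV12-2+TRBV13-2 TRBJ2-3 described below. The libraries shared 4590 barcodes, 44.2% of the RNA barcodes. Cells with exactly 1 productive T cell receptor beta chain (TRB) were grouped by the nucleotides of its CDR3, the hypervariable loop, and 12 such families held 50 or more cells and 2614 cells in all.

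Families are named by the V and J segments of their TRB. The CDR3 sequences are shown for the 4 families that the results turn on, since they are what sets the families apart: the families at the ends of the Hk2 range and those at the ends of the summed level. Capitals mark the stretch from the fourth codon to the last codon but 1, which holds the junction; the lower-case ends are the first 3 codons and the last.
TRBV12-2+TRBV13-2 TRBJ2-3: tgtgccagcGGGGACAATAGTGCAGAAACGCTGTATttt
TRBV29 TRBJ1-1: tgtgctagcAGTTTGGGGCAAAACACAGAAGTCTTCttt
TRBV17 TRBJ1-1: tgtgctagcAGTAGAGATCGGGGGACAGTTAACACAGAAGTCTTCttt
TRBV13-3 TRBJ2-7: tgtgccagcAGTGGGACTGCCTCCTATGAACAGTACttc
Sequences came from the deposited contig table, read 5′ to 3′ on the coding strand. Cells of 1 family share 1 rearranged TRB and all cells come from 1 library, so families are not replicates and no test between them was run. Intervals given below are exact 95% intervals that cover counting error only.

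Together the 10 genes gave 58410 UMIs, a level of 2622 CPM (2600 to 2643), or 0.262% of all UMIs. UMIs were not divided by gene length, because a molecule is caught by its poly(A) tail and counted once; the order of levels is therefore an order of captured molecules. Gapdh led with 878 CPM, and 143 genes of the library had a higher level. Aldoa followed with 482 CPM, Pkm with 394, Eno1 with 376 and Ldha with 306, and these were the 5 genes at 100 CPM or more. Of the summed UMIs, Gapdh alone gave 33.5% and Aldoa 18.4%. Pkm and Eno1 were neighbours in this order, with intervals of 386 to 402 and 368 to 385 CPM that did not overlap.

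The entry steps stood far lower. Hk1, the constitutive hexokinase, was at 84.4 CPM and Hk2, the inducible isozyme bound to mitochondria in growing cells, at 13.6 CPM, so that Hk2 gave 13.9% (12.5 to 15.4) of hexokinase UMIs. Slc2a1 was at 34.0 CPM and Slc2a3 at 19.4 CPM, and Slc2a1 gave 63.7% (60.9 to 66.4) of the UMIs of both transporters. Pgk1, which makes the first ATP of the pathway, stood at 34.6 CPM, next to Slc2a1, from which its interval did not separate it. Among the 10 genes, Pgk1 was below Gapdh and Eno1, which come before and after it. Pgam1 (phosphoglycerate mutase), which acts between Pgk1 and enolase, was lower still, at 8.48 CPM. Hk2 was the lowest of the 10, with 7324 genes above it.

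**Figure D1:**
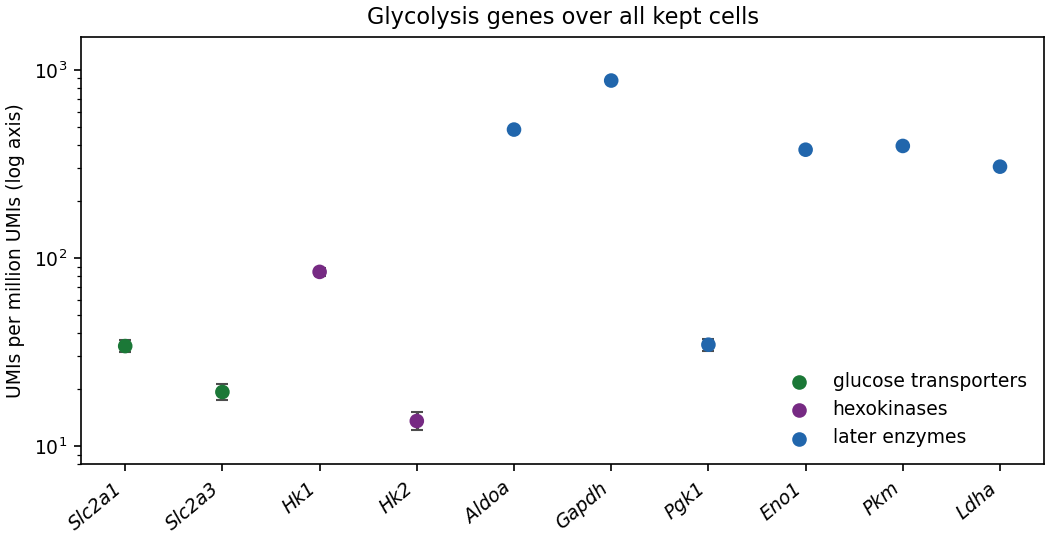
Level of each gene over all 10338 kept cells, in CPM on a log axis, coloured by role; bars are exact Poisson 95% intervals. Gapdh stands at 878, the other 4 abundant enzymes between 306 and 482, and Hk2 lowest at 13.6.

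Detection in single cells followed the levels. Gapdh had a UMI in 73.3% of cells, Aldoa in 54.8%, Pkm in 48.3%, Eno1 in 47.9% and Ldha in 39.2%. Hk1 was seen in 14.7% of cells, Pgk1 in 6.69%, Slc2a1 in 6.26%, Slc2a3 in 3.70% and Hk2 in 2.40%. After each of 9456 cells was thinned to 1000 UMIs, with 882 shallower cells left out, the shares were 54.7% for Gapdh, 24.3% for Ldha, 3.11% for Slc2a1 and 1.25% for Hk2. A thinned cell held UMIs of a median of 2 of the 10 genes, and 9.96% of thinned cells held none. No cell type of the library is expected to lack these genes, so no background share can be set beside them, and a cell without a UMI is not shown to lack the transcript. The variance of the thinned counts was 1.03 (Pgk1) to 1.20 (Slc2a3, Hk2) times their mean.

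Levels moved with depth. The cells were split by their UMIs into 3 groups of 3446. From the shallowest (median 1270) to the deepest (median 2946.5), the summed level went from 2316 to 2761 CPM, 1.19-fold (1.17 to 1.22). Ldha and Gapdh were each 1.25-fold higher in the deepest group, while Slc2a1 was lower there, at 0.786-fold (0.649 to 0.956). Median depth lay between 1732.5 and 2622 UMIs over the 12 families described below, and it is given beside the families and classes whose values stand apart.

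For lactate dehydrogenase, enolase and aldolase, 1 isozyme gave nearly all UMIs. Ldha gave 98.5% of Ldha and Ldhb UMIs, Eno1 97.1% of the UMIs of the 3 enolases, and Aldoa 99.9% of the UMIs of Aldoa and Aldoc. The near-identical copy Eno1b, an Eno1 retrocopy, stood at 5.25 CPM, and the other copies in the matrix had 10 UMIs or fewer each (Gapdhs 10, Gapdh-ps14 9, Aldoart1 9). No source used here says how reads that match a gene and its copies were assigned, so the levels of Gapdh, Eno1 and Aldoa carry that uncertainty.

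The rest of the pathway was read from 5 lists of 63 further genes present in the matrix. Of 19 other glycolysis enzymes, 2 reached 100 CPM: Gpi1, which makes fructose 6-phosphate, at 186 CPM and Pfkp, the platelet-type phosphofructokinase, at 107 CPM. Pfkp gave 72.7% of phosphofructokinase UMIs. Tpi1, which interconverts the products of aldolase, was at 67.5 CPM. Of 8 transport genes, 1 did: Bsg (basigin), the chaperone of lactate transporters, at 152 CPM, whereas the transporters Slc16a1 and Slc16a3 were at 16.0 and 0.987 CPM. Of 8 genes of pyruvate entry into mitochondria, Mpc2, a subunit of the pyruvate carrier, reached 113 CPM. Of 7 pentose phosphate genes, Taldo1 (transaldolase) reached 200.5 CPM. Of 21 regulators 7 did, led by Txnip at 779 CPM, whose product drives glucose transporters from the membrane, and by Ddit4 at 438 CPM, whose product (REDD1) restrains mTORC1. Hif1a stood at 118 CPM and Myc at 93.0 CPM. The median level was 195 CPM for the 10 genes, 6.01 for the other glycolysis enzymes and 41.0 for the regulators, against 2.65 CPM for the 20773 genes with a UMI.

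Across the 12 families the summed level lay within a narrow band. It was lowest in TRBV13-3 TRBJ2-7 at 2353 CPM, had a median of 2664 CPM, and was highest in TRBV17 TRBJ1-1 at 2991 CPM, 1.27 times the lowest. The largest family, TRBV15 TRBJ1-1 with 882 cells, stood at 2726 CPM, and TRBV12-2+TRBV13-2 TRBJ2-3 with 600 cells at 2683 CPM. Against the cells of the other 11 families, the fold was 1.12 (1.07 to 1.19) in TRBV17 TRBJ1-1. It was 1.09 (1.002 to 1.17) in TRBV12-1 TRBJ2-4, the family of the highest median depth, and 0.972 there in cells thinned to 1000 UMIs. It was 0.908 (0.844 to 0.976) in TRBV15 TRBJ2-5, 0.890 (0.812 to 0.973) in TRBV17 TRBJ2-7, 0.912 (0.836 to 0.993) in TRBV14 TRBJ1-4 and 0.874 (0.760 to 0.999) in TRBV13-3 TRBJ2-7. The median depth of these lower families was 1797, 1839, 2164 and 1732.5 UMIs, against 2130 in TRBV17 TRBJ1-1. In TRBV17 TRBJ1-1 the cycling list summed to 230 CPM against 39.9 in the other families, and without its effector cells, defined below, the summed fold was 1.05.

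**Figure D2:**
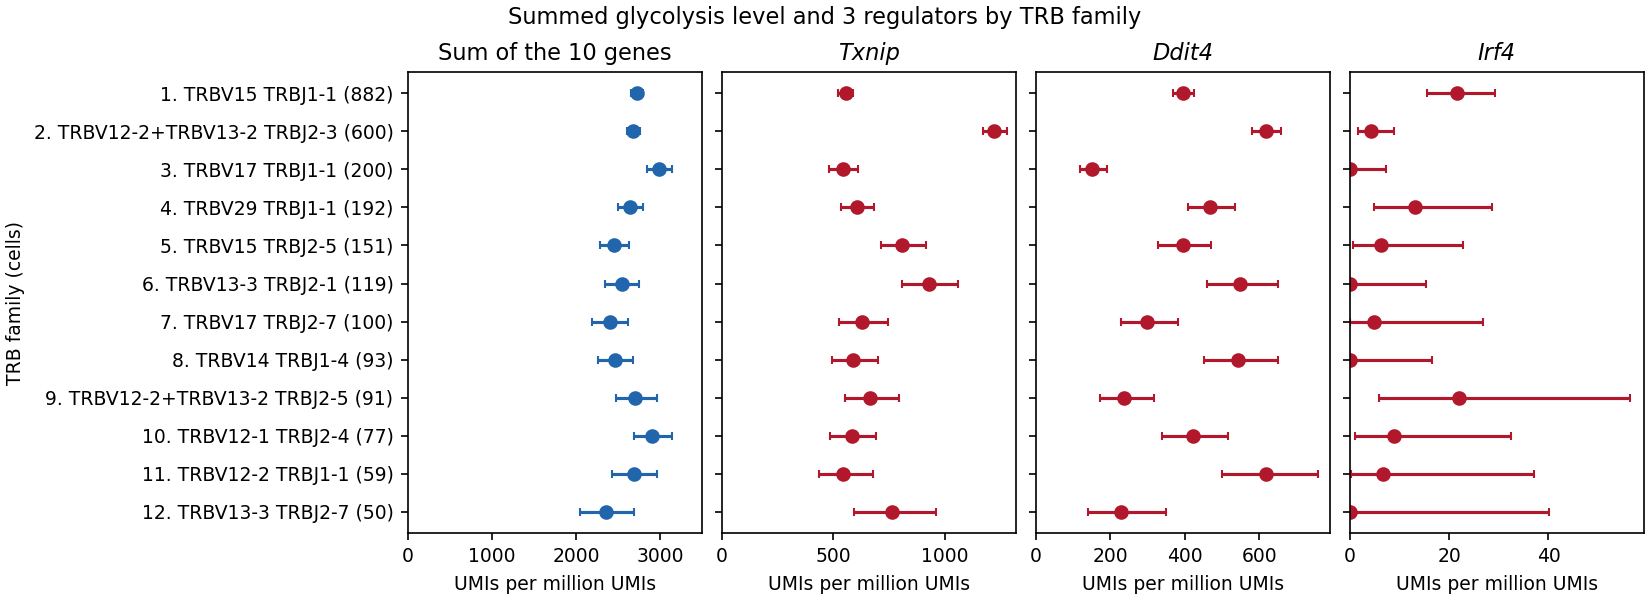
Summed level of the 10 genes and levels of the regulators Txnip, Ddit4 and Irf4 in each of the 12 families, in CPM on linear axes that start at 0; the number of cells is in brackets and bars are exact Poisson 95% intervals. The sum lies between 2353 and 2991 in every family, whereas Txnip reaches 1224 in TRBV12-2+TRBV13-2 TRBJ2-3 and Ddit4 drops to 152 in TRBV17 TRBJ1-1.

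Single genes were read with 1 rule: at least 1.5-fold either way against the other families, with a ratio interval that does not hold 1. Of the 10 genes, 8 had the 200 UMIs in family cells asked of the background genes, all but Slc2a3 (109) and Hk2 (75). None of their 96 gene-family pairs met the rule, where 9.62% of pairs did over all 4716 genes of 200 UMIs or more and 8.04% over genes of 1000 or more. Over all 10 genes, 2 of 120 pairs met it, both of Hk2, where 8.91% did over genes of 50 UMIs or more. Intervals did not hold 1 in 19 of the 120 pairs: 5 of Gapdh, 5 of Ldha, 4 of Aldoa, 2 of Eno1, 2 of Hk2 and 1 of Pkm. By the interval alone, 13.5% of pairs were off 1 over all genes of 50 or more UMIs. The share was 32.7% over genes of 1000 or more UMIs, the depth of Gapdh, Ldha, Aldoa, Eno1 and Pkm. In the 17 pairs of abundant enzymes the difference was each time less than 1.5-fold.

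Among the late enzymes, Gapdh ranged from 762.4 CPM through a median of 905 to 1066 CPM over the families. It was highest in TRBV17 TRBJ1-1, 1.17-fold (1.07 to 1.28) over the others, and 0.834-fold (0.717 to 0.966) in TRBV13-3 TRBJ2-1. Ldha ranged from 237 CPM (TRBV13-3 TRBJ2-1) through 311 to 411 CPM (TRBV17 TRBJ1-1). Its fold was 1.30 (1.12 to 1.503) in TRBV17 TRBJ1-1 and 1.23 (1.05 to 1.44) in TRBV29 TRBJ1-1, against 0.754 (0.593 to 0.946) in TRBV15 TRBJ2-5 and 0.726 (0.548 to 0.944) in TRBV13-3 TRBJ2-1. In cells thinned to 1000 UMIs the Ldha fold in TRBV17 TRBJ1-1 was 0.973, so its direction there depends on that choice. In TRBV29 TRBJ1-1, where 16.7% of cells were effector cells as defined below, the Ldha fold without them was 1.04. Aldoa was 0.716-fold (0.566 to 0.894) in TRBV14 TRBJ1-4, at 360 CPM, and 1.22-fold (1.02 to 1.44) in TRBV13-3 TRBJ2-1, at 600 CPM.

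The families did not share 1 order of these enzymes. TRBV12-2+TRBV13-2 TRBJ2-3 was higher for Eno1, 1.25-fold (1.14 to 1.37), and Aldoa, 1.16-fold (1.07 to 1.25), and lower for Gapdh, 0.876-fold (0.823 to 0.931), and Ldha, 0.882-fold (0.794 to 0.978), so that its summed fold was 0.998. TRBV15 TRBJ1-1 went the other way for 3 of these 4: Eno1 was 0.833-fold (0.759 to 0.914), Aldoa 0.897-fold (0.829 to 0.970) and Gapdh 1.14-fold (1.08 to 1.20). These are the largest families and each is a large share of the other's comparison cells, so the opposite signs are not independent of each other. Pkm had the lowest observed spread: it lay between 315 and 439 CPM in every family, and its coefficient of variation over the families was 9.80%. For Gapdh this was 11.1%, for Eno1 12.3%, for Aldoa 13.7% and for Ldha 16.8%. Over the 939 genes with 1000 or more UMIs in family cells the median was 17.4%, and 5.43% of them varied less than Pkm. The median was 28.8% over genes of 200 or more UMIs. This spread includes counting error and depends on depth, so a low value is not shown to be stable expression.

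**Figure D3:**
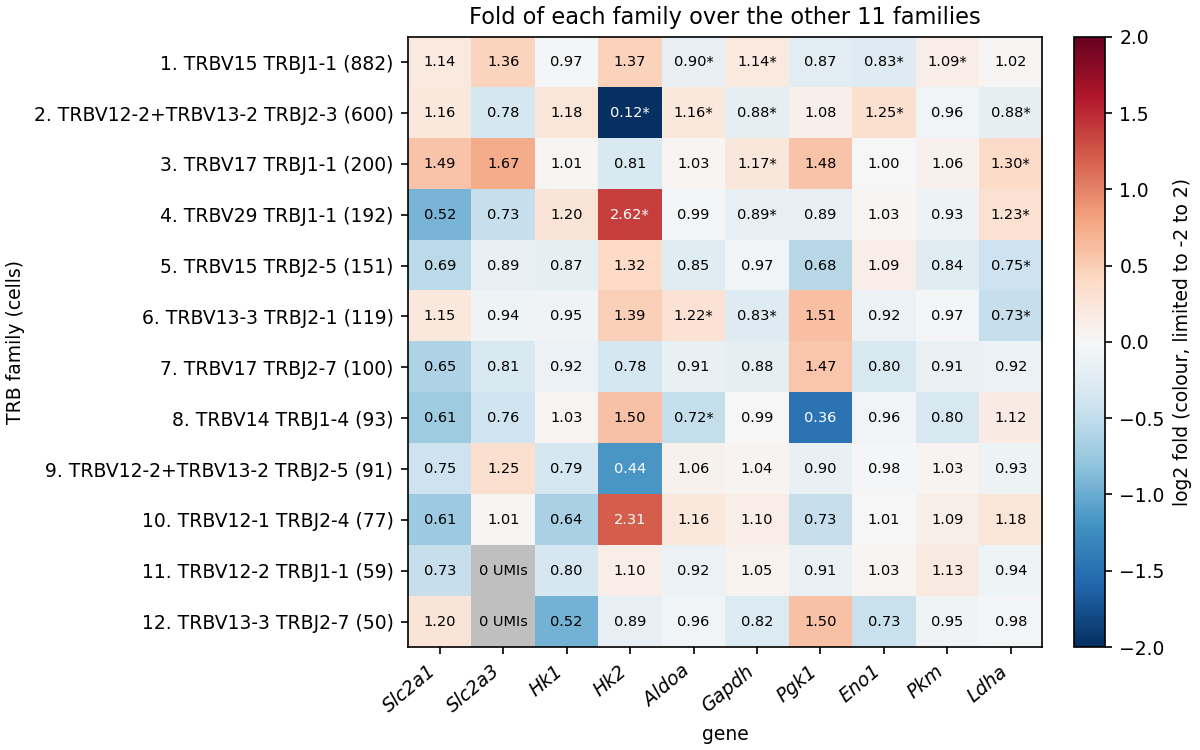
Fold of each gene in each family (cells in brackets) over the cells of the other 11 families; colour is the log2 fold, cut at the ends of the colour bar, and an asterisk marks a 95% interval that does not hold 1. The columns of the abundant enzymes are pale, with folds from 0.716 to 1.30 where an asterisk stands, and the 2 strong colours with an asterisk are Hk2 in TRBV12-2+TRBV13-2 TRBJ2-3 and in TRBV29 TRBJ1-1.

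Low counts limited the other genes, and Hk2, described below, had the fewest. Slc2a1 ranged from 19.7 CPM (TRBV29 TRBJ1-1, 9 UMIs) through a median of 27.1 to 52.1 CPM (TRBV17 TRBJ1-1, 26 UMIs), and none of its 12 intervals left out 1. Slc2a3 was highest in the same family, at 28.0 CPM (14 UMIs), and had no UMI in TRBV12-2 TRBJ1-1 and TRBV13-3 TRBJ2-7. There, 3 counts, the 1-sided 95% limit for a count of 0, would be 19.97 and 32.7 CPM. The exact intervals of these levels ended at 24.6 and 40.2 CPM. Pgk1 ranged from 13.5 CPM (3 UMIs, TRBV14 TRBJ1-4) to 54.5 CPM (5 UMIs, TRBV13-3 TRBJ2-7). Hk1 ranged from 43.6 to 98.5 CPM with a median of 78.1 CPM. None of the 48 intervals of these 4 genes left out 1 at this depth. Under other choices of cells 3 pairs met the rule: Slc2a1 in TRBV17 TRBJ1-1 without effector cells (1.65-fold, 1.05 to 2.49), and, with cells assigned by their TRB of most UMIs, Slc2a1 in TRBV29 TRBJ1-1 (0.504-fold) and Slc2a3 in TRBV15 TRBJ1-1 (1.53-fold).

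Among the 9 genes with a UMI in every family, Hk2 had the widest range, at 15.5 times from lowest to highest. It also had the fewest UMIs of the 10 genes in family cells, 75, and counting error widens such a range. The coefficient of variation of Hk2 was 54.3%, next to 55.0% for Slc2a3, which had no UMI in 2 families. In TRBV12-2+TRBV13-2 TRBJ2-3 it had 3 UMIs in 3 of 600 cells, 1.84 CPM (0.379 to 5.37), at the deepest sequencing but 1 of the 12 families (median 2529.5 UMIs). In TRBV29 TRBJ1-1 it had 13 UMIs in 10 of 192 cells, 28.5 CPM (15.2 to 48.7), at a median of 2153 UMIs. The other 10 families lay between 5.50 and 26.9 CPM. The fold over the other families was 0.116 (0.0233 to 0.352) in the first, where 13.8% of genes with 50 or more UMIs met the rule, and 2.62 (1.32 to 4.81) in the second, where 8.81% did. Hk1 did not follow: it was at 93.7 CPM in the first family and 98.5 CPM in the second. Hk2 therefore gave 1.92% (0.398 to 5.52) of hexokinase UMIs in the first family and 22.4% (12.5 to 35.3) in the second. The highest share, 33.3% (13.3 to 59.0) in TRBV12-1 TRBJ2-4, rested on 6 of 18 UMIs. Without the 16 cells of TRBV12-2+TRBV13-2 TRBJ2-3 that held an erythroid UMI, the Hk2 fold there was 0.119 and the summed fold 1.00. In thinned cells Hk2 had no UMI in that family (a fold of 0, with an upper limit of 0.406) and was 4.93-fold (2.01 to 11.1) in TRBV29 TRBJ1-1. With the TRB of most UMIs the folds were 0.180 and 2.66.

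**Figure D4:**
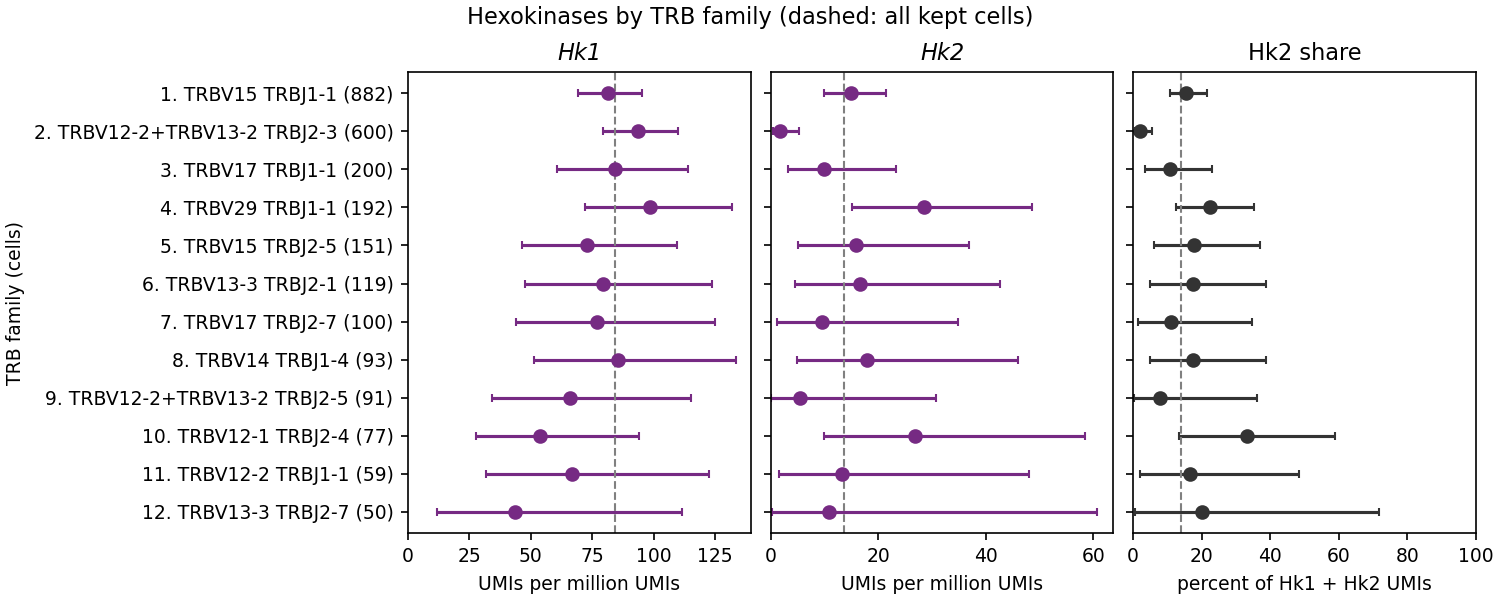
Hk1 level, Hk2 level (CPM) and Hk2 as a percent of hexokinase UMIs in each family, with exact 95% intervals; dashed lines are the values over all kept cells. Hk1 lies between 43.6 and 98.5 in all families, while Hk2 lies at 1.84 in TRBV12-2+TRBV13-2 TRBJ2-3 and at 28.5 in TRBV29 TRBJ1-1.

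Cells that the family rule left out gave a second look at Hk2, in a comparison added after the family values had been seen. For TRBV29 TRBJ1-1 there were 180 further cells (median 2015 UMIs) that carried its TRB beside another TRB, or its most frequent alpha chain, and that belonged to no other family of 50 or more. They held 11 Hk2 UMIs in 9 cells, 28.6 CPM (14.3 to 51.3), which was 2.64-fold (1.25 to 5.05) over the other families. For TRBV12-2+TRBV13-2 TRBJ2-3 there were 64 such cells (median 2472.5 UMIs) with 3 UMIs in 2 cells, 18.5 CPM (3.82 to 54.2) and a fold of 1.17 (0.235 to 3.55). The high Hk2 level of the first was thus also seen in its related cells, and the low level of the second was not, on 3 UMIs. A smaller family, TRBV3 TRBJ2-1 with 40 cells, has the most frequent alpha chain of TRBV29 TRBJ1-1. It is among the comparison cells where families of 30 or more cells or all other single-TRB cells are used. Related cells share a receptor chain with the family and come from the same library, so they are not a replication. Hk2 was at 13.3 CPM in the 5752 cells with no receptor contig (median 1827 UMIs) and at 19.0 CPM in the 1265 cells of smaller families (median 1873 UMIs). Of these, TRBV19 TRBJ1-1, with 34 cells, a median of 3178 UMIs and named here after its values were seen, held 8 UMIs in 4 cells, 73.0 CPM (31.5 to 144).

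Upstream DNA of the hexokinases and of Ldha is shown because the core of the hypoxia response element that HIF-1 binds, ACGTG, and the E-box CACGTG that Myc binds are both known from glycolytic promoters. RefSeq promoter entries (GRCm38.p6, the 250 bases before the start) existed for 9 of the 10 genes, with 16 entries in all. Capitals mark ACGTG or its reverse complement CACGT, both strands having been searched.
Hk2, chr6:82774455-82774704, minus strand: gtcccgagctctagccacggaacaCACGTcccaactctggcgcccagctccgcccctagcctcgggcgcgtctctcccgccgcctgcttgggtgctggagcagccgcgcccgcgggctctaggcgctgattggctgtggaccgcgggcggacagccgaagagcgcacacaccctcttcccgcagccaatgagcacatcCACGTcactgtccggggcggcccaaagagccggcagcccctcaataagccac
Hk1, chr10:62379909-62380158, minus strand: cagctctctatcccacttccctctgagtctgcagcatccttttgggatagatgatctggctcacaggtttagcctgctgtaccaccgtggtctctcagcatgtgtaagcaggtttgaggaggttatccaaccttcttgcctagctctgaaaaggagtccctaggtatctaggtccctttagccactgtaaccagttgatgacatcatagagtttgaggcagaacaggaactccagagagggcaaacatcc
Ldha, chr7:46845554-46845803, plus strand: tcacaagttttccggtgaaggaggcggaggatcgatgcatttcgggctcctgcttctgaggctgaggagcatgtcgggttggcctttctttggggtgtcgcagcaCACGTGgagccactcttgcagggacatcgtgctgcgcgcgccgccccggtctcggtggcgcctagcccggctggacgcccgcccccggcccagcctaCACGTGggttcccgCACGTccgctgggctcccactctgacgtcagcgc
The Hk2 stretch held 2 matches of ACGTG, the Hk1 stretch none and the Ldha stretch 5, of which 4 lie in its 2 copies of CACGTG, a motif that reads ACGTG on both strands. Of the 9 genes with an entry, 6 held ACGTG in at least 1 (Slc2a1, Hk2, Aldoa, Pgk1, Pkm and Ldha), and Ldha alone held CACGTG. Of 27025 genes in the table, 18.5% held ACGTG in at least 1 entry and 6.86% CACGTG. Counted by entry, 7 of the 16 held ACGTG and 1 CACGTG, against 16.6% and 6.02% of 32851 entries. A match is a string of letters and not a measured binding site, and the data hold no measure of binding.

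The regulators included genes with large differences between families. Of 132 pairs of 11 regulators with 200 or more UMIs, 21 (15.9%) met the 1.5-fold rule, 8 higher and 13 lower, against 9.62% of pairs over all genes of that depth. The pairs that met it were of 9 genes. The list was chosen with earlier results of these data known, so its share is a description and not a test. Txnip stood at 1224 CPM in TRBV12-2+TRBV13-2 TRBJ2-3, 2.00-fold (1.89 to 2.12) over the others, and at 556 CPM in TRBV15 TRBJ1-1, 0.636-fold (0.594 to 0.681). Ddit4 was 1.61-fold (1.48 to 1.74) in the same family, at 619 CPM, and 0.321-fold (0.252 to 0.404) in TRBV17 TRBJ1-1, at 152 CPM. The family of the lowest Hk2 level had the highest Txnip level and that of the highest summed level had the lowest Ddit4 level. The opposite ends did not mirror this. TRBV13-3 TRBJ2-7, of the lowest summed level, also had low Ddit4, at 229 CPM (0.507-fold). Txnip was not lowest in TRBV29 TRBJ1-1, of the highest Hk2 level: leaving out cells with an erythroid UMI, it was 602 CPM there and 543 CPM in TRBV17 TRBJ1-1. These are values of single families, and a link was not tested. Without cells holding an erythroid UMI, Txnip and Ddit4 were 1.99-fold and 1.61-fold in TRBV12-2+TRBV13-2 TRBJ2-3.

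Other regulators met the rule in other families. Irf4, a factor induced by receptor signals, was 3.97-fold (2.34 to 6.92) in TRBV15 TRBJ1-1, at 21.7 CPM, 0.335-fold in TRBV12-2+TRBV13-2 TRBJ2-3, and without a UMI in TRBV17 TRBJ1-1. Myc was 1.78-fold (1.22 to 2.50) in TRBV14 TRBJ1-4 and 0.356-fold (0.130 to 0.779) in TRBV12-2+TRBV13-2 TRBJ2-5. Hif1a was 0.584-fold (0.404 to 0.820) in TRBV29 TRBJ1-1, the family of the highest Hk2 level. Bhlhe40 was 1.77-fold in TRBV17 TRBJ2-7 and 0.461-fold in TRBV13-3 TRBJ2-1.

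Of the other pathway lists at 200 or more UMIs, glycolysis enzymes met the rule in 5 of 60 pairs (8.33%), pentose phosphate genes in 8 of 72 (11.1%), pyruvate entry in 1 of 36 and transport in 1 of 12, beside 9.62% of pairs over all genes of that depth. Tpi1 was 1.61-fold (1.34 to 1.94) in TRBV15 TRBJ1-1 and 0.473-fold (0.243 to 0.834) in TRBV15 TRBJ2-5. Pfkp was 1.67-fold (1.32 to 2.08) in TRBV17 TRBJ1-1, at 178 CPM, the family in which the summed level was highest. Ldhb, the heart-type lactate dehydrogenase, had 8 UMIs in TRBV13-3 TRBJ2-1, 33.3 CPM and 11.6-fold (4.34 to 28.4) over the others, in the family where Ldha was lowest; it has too few UMIs for the 200-UMI counts. Pgls, the lactonase of the pentose phosphate path, was 0.265-fold (0.0857 to 0.623) in that family and 1.60-fold in TRBV17 TRBJ1-1.

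Cells were also grouped by what they expressed, taking cells with UMIs of at least 2 genes of a class list; such a class is a range of cells, not a type, and deeper cells enter it more easily. The 26 cycling cells had a median of 5013.5 UMIs against 1919 in all other cells, and 15 of them held exactly 2 of the 19 cycling genes, while 501 cells held 1. Ldha stood at 884 CPM in them against 302 CPM, 2.93-fold (2.46 to 3.47). Pkm was 1.89-fold (1.56 to 2.26) and Gapdh 1.67-fold (1.46 to 1.90), and the sum 1.66-fold (1.54 to 1.79) at 4328 CPM. These 3 of the 10 genes met the rule upward and none downward, where 14.2% of genes of 200 or more UMIs met it, 8.09% upward and 6.09% downward, and the median fold was 1.75 for the 10 genes against 0.921 for all. Of the transporters, Slc2a1 had 1 UMI in these cells, a fold of 0.185 (0.00467 to 1.03), and Slc2a3 had 6, a fold of 1.97 (0.718 to 4.32), and neither met the rule. Beyond the 10 genes, Tpi1 was 3.52-fold (2.47 to 4.88) and 4 of 7 pentose phosphate genes met the rule upward (Pgls, Rpia, Rpe and Tkt), while Txnip was 0.388-fold (0.286 to 0.514), all against the shallower other cells.

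Against 746 other cells of like depth (median 4605.5 UMIs) Ldha was 2.38-fold (1.98 to 2.83), Pkm 1.59-fold (1.31 to 1.92), Gapdh 1.52-fold (1.33 to 1.74) and the sum 1.46-fold (1.35 to 1.58). Against the same cells Tpi1 was 2.74-fold (1.90 to 3.87), Rpia 2.29-fold (1.42 to 3.51) and Txnip 0.469-fold (0.345 to 0.624), while the intervals of Pgls, Rpe and Tkt held 1. Only 11 cells met the class when thinned to 1000 UMIs, too few to compare. Of the 12 cycling cells with a TRB, 2 carried a second one (16.7%), against 5.96% of other cells with a TRB; the part of doublets was not tested. The B cell and erythroid lists stood at 37.9 and 6.32 CPM in cycling cells against 49.4 and 156 CPM in the others, and the NK list at 88.4 CPM against 0.949. All 14 NK UMIs lay in 1 cycling cell, which had no TRB, 4 Cd3 UMIs and 2 Cd8 UMIs. Without cells holding an NK UMI, a comparison added after seeing the data, Ldha was 3.01-fold, Pkm 1.87-fold, Gapdh 1.65-fold and the sum 1.64-fold over all other cells.

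Effector cells were chosen by 9 genes, of which Id2 (seen in 1616 kept cells), Zeb2 (947) and Cxcr6 (520) were the most often seen. Ccl4, Gzma and Klrg1 were rarer, at 219, 78 and 28 cells. The 664 effector cells had a median of 2307 UMIs against 1894, and 450 of them held exactly 2 class genes. Their summed level was 2801 CPM against 2606, 1.07-fold (1.04 to 1.11). The transporters parted: Slc2a3 was 1.81-fold (1.35 to 2.38), at 32.9 against 18.2 CPM, and Slc2a1 was 0.591-fold (0.415 to 0.820), at 20.8 against 35.2 CPM. These 2 of the 10 genes met the rule, 1 in each direction, where 8.1% of genes did. With the class drawn on thinned cells (285 cells, where 10.6% of genes met the rule), Slc2a3 was 2.84-fold (1.59 to 4.75) and Slc2a1 0.3997-fold (0.108 to 1.03), while the summed fold was 0.982. Irf4 was 2.75-fold (1.86 to 3.96, 37 UMIs) and Ldhb 3.07-fold (1.85 to 4.92, 23 UMIs) in effector cells. Over all cells they had 188 and 107 UMIs, under the 200 asked of the genes behind the 8.1%. Tigar (1.67-fold), Egln3 (3.09) and Mtor (1.79) also met the rule upward, and Slc2a6 (0.187) and Tsc1 (0.635) downward. With the class drawn on thinned cells the Irf4 interval, 0.540 to 5.50, held 1. The NK list stood at 11.5 CPM in effector cells against 0.684 CPM, 21 UMIs in 5 cells, of which 14 were those of the cell named above. Without cells holding an NK UMI, Slc2a3 was 1.80-fold and Slc2a1 0.583-fold.

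**Figure D5:**
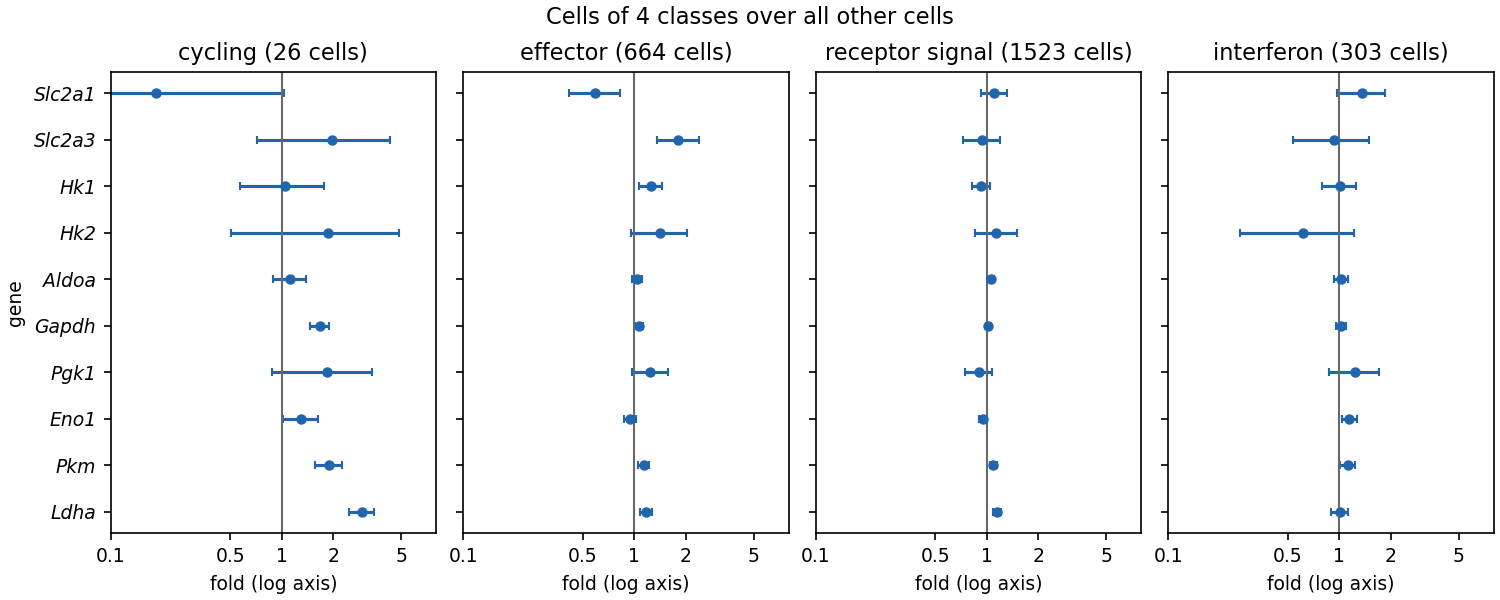
Fold of each gene in the cells of 4 classes over all other kept cells, on a log axis with exact 95% intervals; the lower end for Slc2a1 in cycling cells lies outside the axis, at 0.00467. Ldha reaches 2.93 in cycling cells, the transporters lie on opposite sides of 1 in effector cells, and all points of the other classes lie between 0.612 and 1.36.

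Taken over all kept cells, no gene of the 10 met the rule in cells with signs of recent receptor signalling or of interferon, and with the classes drawn on thinned cells 1 gene did in each. In the 1523 cells of the receptor signal class (median 2562 UMIs against 1839), 0 of 10 genes met the rule, where 1.35% of genes did, and the largest fold among the abundant enzymes was 1.15 (1.08 to 1.22) for Ldha. Drawn on thinned cells (467 cells), Slc2a1 met it at 1.67-fold (1.07 to 2.49), where 4.41% of genes did. In the 303 cells of the interferon class (median 2716 UMIs against 1901), 0 of 10 met it, where 5.03% of genes did, and Slc2a1 was at 1.36-fold (0.973 to 1.85). Drawn on thinned cells (105 cells), Aldoa met it at 0.592-fold (0.396 to 0.851), where 4% of genes did, and the summed fold went from 1.06 (1.01 to 1.10) to 0.825 (0.720 to 0.942).

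As a description over the 12 families, with no test, the genes whose levels followed the 10-gene sum most closely among 2089 genes of 500 or more UMIs were Zcchc6 (Pearson r of log2(CPM + 1) 0.855), Coro1b (0.826), Wnk1 (0.791), Tmem167 (0.771) and Usf2 (0.757). The families share a library and differ in depth. The 6 of the 10 genes with that many UMIs did not follow each other closely: over their 15 pairs r went from -0.256 for Hk1 with Pkm to 0.597 for Aldoa with Pkm.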

How the data were processed

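The authors deposited raw counts of UMIs for 1 RNA library, with no normalization, and a contig table with the receptor sequences. Per the submitters' processing notes, the genome build was GRCm38 and the tools included featureCounts 2.0.1, STAR 2.6.1a and cutadapt 1.17. No source used here names the receptor assembler. A cell needed 200 genes and less than 20% mitochondrial UMIs, which left out 49 barcodes. No doublet caller was run; barcodes with 2 or more productive TRB were kept out of the families. UMIs were summed over cells and divided by all UMIs of those cells (counts per 1000000, CPM). Sums have exact Poisson, shares exact Clopper-Pearson and ratios exact conditional 95% intervals, all for counting error only; UMIs remove copies made by amplification. The limit for a count of 0 is 3 counts over the group, a 1-sided 95% limit. The rule of 1.5-fold with an interval that does not hold 1 was tried on simulated counts. These held counting error only, changes larger than 1.5-fold and genes expected to have 200 or more UMIs. The trial therefore does not cover variation between cells, nor Hk2 with its 75 UMIs in family cells. With 1 library there was no test between groups. The 10 genes are all named, and other genes come from 5 pathway lists; the members and lists were chosen with earlier results of these data known. Depth, scaling, cell filters, family rules and doublets were varied as alternatives. Genome positions and promoters came from RefSeq tables of GRCm38.p6. Python 3.11.15, pandas 2.3.3, scipy 1.17.1, matplotlib 3.10.9 and numpy 2.4.6 were used.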

Additional observations from a re-analysis of the deposited data

How the results depend on the processing

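The summed level of 2622 CPM became 3579 with a denominator free of ribosomal, mitochondrial, TCR segment genes and Gm42418, 2506 as a mean over cells and 2568 in cells thinned to 1000 UMIs. In thinned cells the summed fold was 1.10 in TRBV15 TRBJ1-1, 1.04 in TRBV17 TRBJ1-1 and 0.972 in TRBV12-1 TRBJ2-4, a changed direction, and the Ldha fold in TRBV17 TRBJ1-1 was 0.973, also changed. Thinning is 1 random draw that keeps 42.4% of UMIs; as a mean of per-cell levels in cells of at least 1000 UMIs, an alternative chosen after seeing the data, those summed folds were 1.04, 1.07 and 1.09. Without effector cells the summed fold in TRBV17 TRBJ1-1 was 1.05. In all, 140 of 144 alternative summed folds stayed within the counting interval of the reported one. The 2 pairs past 1.5-fold became 17 on the fold alone. They became 4 with families of 30 or more cells (Eno1 in TRBV13-1 TRBJ1-1, 1.57, and Hk2 in TRBV19 TRBJ1-1, 5.95, were added), 4 in thinned cells (Hk2 in TRBV15 TRBJ1-1, 2.23, and Aldoa in TRBV14 TRBJ1-4, 0.551) and 4 with the TRB of most UMIs (Slc2a3 in TRBV15 TRBJ1-1, 1.53, and Slc2a1 in TRBV29 TRBJ1-1, 0.504). Without effector cells they became 3 (Slc2a1 in TRBV17 TRBJ1-1, 1.65). Both Hk2 pairs met the rule under each of these settings, and also against all other single-TRB cells (0.108 and 2.12). Their folds went from 0 to 0.180 and from 2.12 to 4.93. Chosen after seeing the data, cells related to TRBV12-2+TRBV13-2 TRBJ2-3 gave an Hk2 fold of 1.17, cycling cells against like depth a summed fold of 1.46, and classes drawn on thinned cells summed folds of 0.982 in effector, 1.07 in receptor signal and 0.825 in interferon cells, the first and the last with a changed direction (from 1.07 and 1.06); Slc2a1 in receptor signal cells became 1.67 and Aldoa in interferon cells 0.592. Leaving out cells with an NK UMI kept 7 of 7 class folds within their counting interval. Of all 18 alternative class folds, 9 stayed within it, 7 left it and 2 changed direction. The cause of these changes was not tested. No paired analysis was possible because the series holds 1 library of each kind and no test was run. Counts limit Slc2a1, Slc2a3, Hk2 and Pgk1 by family, where single families held 0 to 77 UMIs.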
